A study of Mus musculus with 12 samples.

Results

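The response of wild-type mouse embryonic stem cells to retinoic acid was read from 4 of the 12 RNA sequencing libraries in the series, chosen by their labels: 2 untreated wild-type libraries and 2 wild-type libraries given all-trans retinoic acid over 4 days. All 12 libraries came from ZHBTc4, an embryonic stem cell line of 129/Ola origin in which both native copies of Pou5f1 (the gene for Oct4) are disrupted and Oct4 is made from a transgene that doxycycline turns off. The control and treated cells described here therefore both lived on transgenic Oct4, and neither received doxycycline. The other 8 libraries, 2 each, were wild-type cells given doxycycline at 0.5 µg/ml for 2 days and cells of a Phf6 knockout (KO) line that were untreated, given doxycycline or given retinoic acid. Cells were first expanded on mouse embryonic fibroblast feeders and then kept without feeders on gelatin in serum with leukaemia inhibitory factor (LIF). Retinoic acid was given in medium without LIF, at a dose that the protocol text writes as 10 mM; the same text writes doxycycline in mg/ml where the sample label has µg/ml, so the unit of the dose was not taken as sure. RNA of the control libraries was described with Trizol and an M-MLV cDNA kit, and RNA of the retinoic acid libraries with Trizol and a Qiagen RNeasy kit. The retinoid, the loss of LIF and the extraction text changed together, so their shares in any difference below cannot be told apart. The labels do not say whether the 2 libraries of a group came from separate cultures, so the p-values measure the spread between these libraries, which may be technical.

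Retinoic acid is made from vitamin A by alcohol and aldehyde dehydrogenases, carried inside cells by CRABP proteins and destroyed by the CYP26 enzymes. It acts through nuclear receptors, the RARs, which bind DNA with an RXR partner at direct repeats of a short hexamer and exchange corepressors for coactivators when the ligand arrives. In the embryo it patterns the hindbrain and trunk through the Hox genes, and in cultured embryonic stem cells it is a classical signal for leaving the self-renewing state, towards neural or endoderm-like fates depending on the culture. LIF, through Stat3, is the signal that holds mouse embryonic stem cells in self-renewal in serum.

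The classical retinoic acid response element is a direct repeat of hexamers spaced by 5 bases, called DR5. The window from 250 bases before to 50 bases after the start was available for 63 of 94 genes of the retinoid, Hox and TALE lists (RefSeq, GRCm38.p6) and was searched on both strands for any pair at that spacing among the hexamer AGGTCA, its variant AGTTCA, its variant GGGTCA and its variant GGTTCA. It was found in 2 of them, Rarb and Cyp26a1, which are among the genes the response turns on. The stretch around each match follows, written along the gene's own strand with the repeat in capitals.
Rarb: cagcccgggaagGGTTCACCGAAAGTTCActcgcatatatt
Cyp26a1: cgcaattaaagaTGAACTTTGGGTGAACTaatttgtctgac
The Rarb repeat lies 53 to 37 bases before the start in the window chr14:16575427-16575726 (minus strand). The Cyp26a1 repeat lies 32 to 16 bases before the start in chr19:37697558-37697857 (plus strand) and reads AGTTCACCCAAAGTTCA on the opposite strand. The same motif stood in 32 of 32851 windows (0.0974%) and in 10 of the 12326 tested genes with a window (0.0811%). Among the 2866 of these that rose at least 2-fold, it stood in 4 (0.14%). The other tested genes that carry it include Ppbp and Prokr2, which rose, Cfap45, which fell from 8.7 and 7.66 to 1.01 and 1.8 CPM (depth-scaled counts, defined in the next paragraph), and Blvrb, which did not pass the test. Repeats spaced by 1 or 2 bases were searched as well. Among the listed genes the first stood only in the window of Bco1, and the second in no window. A match of letters is a description of these windows and says nothing on binding.

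The control libraries held 18767773 and 17834423 counts and the retinoic acid libraries 19784313 and 17502830, within the 15799517 to 21441996 of all 12. Values per gene are given as CPM, the usual depth-scaled count, on library sizes scaled by TMM, for 1 gene across libraries, or as the authors' TPM, which divides by transcript length, where genes are compared with each other. A gene was called when the adjusted p of edgeR's quasi-likelihood test, over 17884 genes tested, was below 0.05, and "rose" and "fell" are used only for called genes. Changes are log2 differences, retinoic acid minus control, with standard errors (SE); the SE of a gene with few reads in 1 group may understate its counting error. The library sizes matter for small changes. The authors' TPM put the median of all tested genes at 0.50 and CPM put it at 0.12. The gap per gene had a median of 0.51 over the 8863 genes above a mean of 10 TPM, and its spread was not measured. On the TPM scale 80.3% of the calls were rises (10287 against 2525), and on the CPM scale 55.5%. Of the 5988 genes called at 2-fold or more, 3 changed sign between the scales, while 13.7% of all 13215 called genes did. Falls of under 2-fold are therefore relative to the scale, and the TPM value is given beside those that the text turns on.

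Markers of other cells were read first. The 8 embryonic stem cell markers summed to 6700 and 6808 CPM in the control libraries and to 2699 and 2883 CPM in the retinoic acid libraries, and both groups thus carried them. Pou5f1, whose product comes from a transgene in this line, is among the 8. It did not pass the test, so it makes a larger part of the lower sum. Markers of feeder fibroblasts summed to 107 and 110 CPM in control and to 259 and 266 CPM in retinoic acid, and 11 of the 14 tested rose. Fap had no read in the 4 libraries and Lum and S100a4 stood at or below 0.311 CPM, while the collagen gene Col1a1 went from 4 and 3.24 to 14.1 and 14.4 CPM. The part of feeder cells in the results was not tested. Blood and endothelium markers summed to 237 and 226 CPM against 204 and 209 CPM, with the blood genes Ptprc, Hbb-bh1 and Hba-x at or below 0.0881 CPM. Single members moved both ways: of the 9 tested, 4 rose and 3 fell (44.4% and 33.3%, beside 41.0% and 32.9% of all genes tested). In bulk RNA, fewer cells of a type and less RNA per cell cannot be told apart. Phf6, the gene deleted in the other line, stood at 42.8 and 40.2 CPM in wild-type control and 40.3 and 40.7 CPM in wild-type retinoic acid libraries, against 4.49 to 6.5 CPM in the KO control and KO retinoic acid libraries.

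Most of the transcriptome differed between treated and control cells. At the threshold 7332 of 17884 genes rose (41.0%) and 5883 fell (32.9%). Of these, 4169 rose (23.3%) and 1819 fell (10.2%) by at least 2-fold, and 903 rose (5.05%) against 87 that fell (0.486%) by at least 10-fold. The large changes were thus mostly rises. Counts of list members below are to be read beside the shares over all genes tested, 41.0% higher and 32.9% lower. The retinoic acid libraries also had more genes with any count, 25030 and 24587 against 22398 and 22179. The genes that rose at least 2-fold made 1.19% and 1.15% of all TPM in the control libraries and 6.03% and 5.97% after retinoic acid. Those that fell at least 2-fold went from 22.4% and 22.3% to 12.8% and 12.7%. Long genes sat higher than short ones: the median change was -0.24 in the 25% with the shortest effective length and 0.37 in the 25% with the longest.

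The enzymes that destroy retinoic acid and one of its receptors were nearly silent in control cells and higher in treated cells, where Cyp26c1 stayed at a low level. Cyp26a1, the main retinoic acid hydroxylase (ENSMUSG00000024987.5, shown above with its repeat), stood at 0.0588 and 0.125 CPM in the control libraries and at 132 and 117 CPM after retinoic acid. That is a ratio of 1380, with a 95% exact counting interval of 472 to 6692, because the control libraries held 3 reads between them. Its fitted change was 10.32 ± 0.19 (SE, edgeR adjusted p = 3.8e-25). Cyp26b1, a second hydroxylase, rose from 0.353 and 0.374 to 79.2 and 76.7 CPM (7.72 ± 0.17). Cyp26c1 rose from 0.118 and 0.0623 to 2.91 and 2.84 CPM, a ratio of 31.7 (counting interval 10.6 to 156), and ended lowest of the family per length, at 3.24 and 3.15 TPM. All members of the degradation list (3 of 3) rose.

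Of 6 receptors 4 rose and 1 fell, and Rarb rose most. It went from 0.529 and 0.249 to 27.6 and 23.3 CPM (5.99 ± 0.22, edgeR adjusted p = 2.1e-19), both treated libraries lying far above both controls. Rara rose from 41.4 and 40.2 to 54.9 and 56.8 CPM (0.45 ± 0.067). Rarg fell from 69 and 69.7 to 48.7 and 44 CPM (-0.58 ± 0.064), a fall that was not seen on the TPM scale (-0.08, limma adjusted p = 0.44). Per transcript length, the treated cells held Rarb at 22.8 and 17.8 TPM, below Rara at 34.6 and 35.4 TPM and Rarg at 34.5 and 29.9 TPM. Of the RXR partners, Rxra rose slightly (0.28 ± 0.067), Rxrg rose at about 1 CPM, and Rxrb, the highest at 47.9 and 49.1 TPM, did not pass the test (0.12, edgeR adjusted p = 0.085). Of 7 receptor cofactors 4 rose and 2 fell, and Nrip1, a corepressor that binds liganded receptors, rose from 9.82 and 7.1 to 70.9 and 64 CPM (2.99 ± 0.13). The corepressor gene Ncor1 was called lower on the CPM scale (-0.41 ± 0.051) and stood at 0.06 on the TPM scale.

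Of 8 tested carriers 3 rose and 2 fell (37.5% and 25%, beside 41.0% and 32.9% of all genes tested). Stra6, the membrane receptor that takes up vitamin A, rose from 1 and 0.623 to 63.7 and 53.2 CPM (6.15 ± 0.17). Crabp2, which hands retinoic acid to the receptors, rose from 2.88 and 3.67 to 69.4 and 71.6 CPM (4.43 ± 0.11). Crabp1, its relative, was called lower, from 27.6 and 26.5 to 18.1 and 17.3 CPM (-0.61 ± 0.082), and stood at -0.08 on the TPM scale (limma adjusted p = 0.37). The carriers changed order per transcript length: Crabp1 stood at 54.5 and 51.1 TPM above Crabp2 at 4.72 and 5.87 TPM in control, and at 51.3 and 48.7 TPM below it at 164 and 167 TPM after retinoic acid. Dhrs3, a reductase that turns retinaldehyde back to retinol, rose from 2.35 and 1.93 to 60.3 and 50.7 CPM (4.69 ± 0.13). Aldh1a2, the main retinoic-acid-making enzyme of the embryo, rose from 2.12 and 1.68 to 3.96 and 5.49 CPM, and Rdh10, the retinol dehydrogenase before it, from 6.94 and 7.6 to 13.7 and 13.6 CPM. In the synthesis list 8 of 13 tested genes rose and 3 fell, with a median of 0.91 beside 0.12 over all genes tested.

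The list of known retinoic acid targets, which shares genes with the lists above and below, had 18 of 19 tested genes higher, all at least 2-fold, and a median of 5.64. It is a textbook list whose members were picked with earlier results of these data known, so its count describes these genes and is no independent evidence. Stra8, the gatekeeper of meiosis in germ cells, rose from 5.23 and 4.92 to 135 and 150 CPM (4.81 ± 0.089, edgeR adjusted p = 3.9e-26). Tshz1, a trunk-patterning zinc-finger gene, rose from 1.12 and 1.31 to 77.7 and 61.7 CPM. The exception was Tgm2, a transglutaminase that retinoic acid induces in other cells, which was called lower, from 109 and 116 to 63.4 and 78 CPM (-0.67 ± 0.092), and stood at -0.15 on the TPM scale (limma adjusted p = 0.21). The untested member, Rarres2, stood at or below 0.529 CPM in the 4 libraries.

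**Figure D1:**
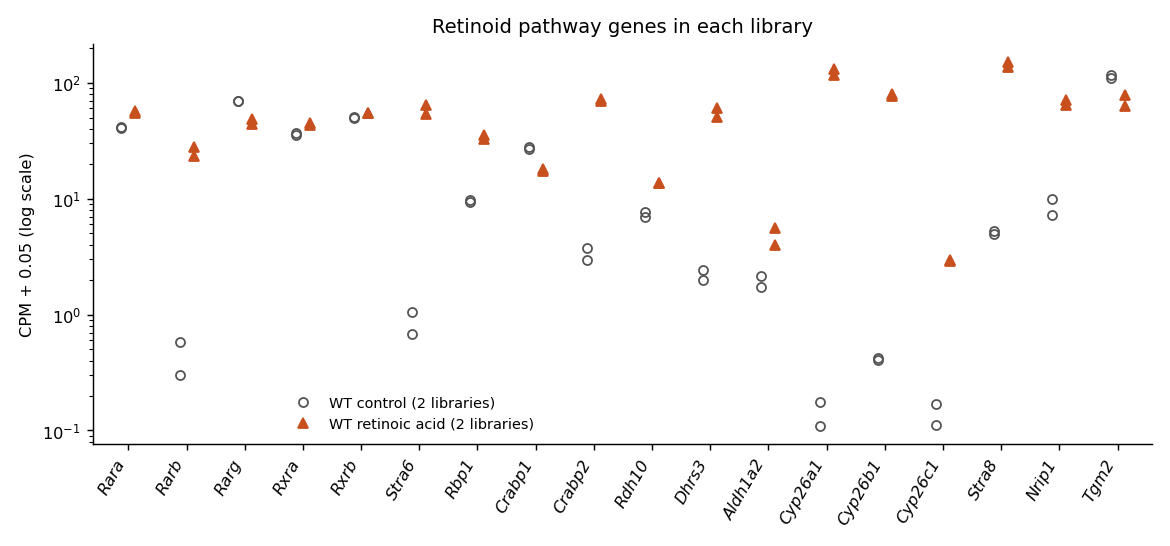
CPM of 18 retinoid pathway genes in the 2 WT control libraries (open circles) and the 2 WT retinoic acid libraries (triangles), on a log axis after adding 0.05. Rarb, Stra6, Cyp26a1, Cyp26b1 and Cyp26c1 move from at most 1 CPM in control to at least 2.84 CPM, while Rara, Rarg, Rxra and Rxrb shift little on this axis.

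Nearly all Hox genes rose. Hox genes encode the homeodomain factors that give cells their position along the body axis and sit in 4 clusters, A to D, in the order in which they act, from group 1 at the head end to group 13 at the tail end. Of 39 genes 38 were tested and 36 rose, 35 of them at least 2-fold. Hoxc11 and Hoxc12 did not pass the test, and Hoxd12, untested, stood at or below 0.15 CPM. Summed over the clusters, the libraries held 9.92 and 11.3 TPM of Hox transcripts in control and 562 and 512 TPM after retinoic acid. The median fitted change was 5.69, and 5.12 with the 9 genes that had no control read set to the fold that a floor of 3 counts allows. On the scale of log2(TPM + 0.5), which understates changes of low genes, it was 3.60.

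Hoxb1, the head-end gene of cluster B and a direct retinoic acid target, had no read in the control libraries and stood at 35.7 and 31.7 CPM after retinoic acid, at least 185-fold higher against a floor of 3 counts per library. The same held for its neighbours: Hoxb2 (24.9 and 20.8 CPM, at least 126-fold), Hoxb3 (19.2 and 16.3 CPM, at least 97.9-fold), Hoxb5 (7.22 and 6.98 CPM, at least 39.1-fold) and Hoxb6 (8.89 and 8.63 CPM, at least 48.2-fold) also had no control read. Hoxb9, by contrast, was already at 4.76 and 5.35 CPM in control and rose to 32.9 and 31.7 CPM (2.68 ± 0.11). Hoxa9, with 1 control read, reached 50 and 38.6 CPM, a ratio of 1476 (counting interval 265 to 58328), and Hoxa5 reached 52.7 and 47.8 CPM from 0.176 and 0.187. The clusters ended at different levels, with cluster A summing to 283 and 252 TPM after retinoic acid, cluster B to 192 and 179, cluster C to 62.2 and 59.8 and cluster D to 25.1 and 21.2.

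Levels were summed by position along the clusters, over unequal numbers of genes. Groups 1 to 5 (15 genes) summed to 326 and 301 TPM after retinoic acid. Groups 6 to 9 (12 genes) summed to 193 and 173 TPM, and groups 10 to 13 (12 genes) to 43.1 and 37.9 TPM. Not every gene followed that order: Hoxa9 stood at 57.8 and 46.9 TPM, above Hoxb1 at 34.9 and 31 TPM and Hoxb5 at 6.91 and 6.83 TPM. All 15 genes of groups 1 to 5 and all 12 of groups 6 to 9 rose, and 9 of the 11 tested in groups 10 to 13. Tail-end genes were among those that rose: Hoxa10 went from 0 and 0.0623 to 22.1 and 19 CPM, a ratio of 682 (counting interval 122 to 26965), and Hoxb13 from 0.47 and 0.436 to 5.28 and 4.09 CPM (3.35 ± 0.3). Hoxa13, Hoxc13 and Hoxd13 rose as well, ending at or below 4.54 CPM.

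**Figure D2:**
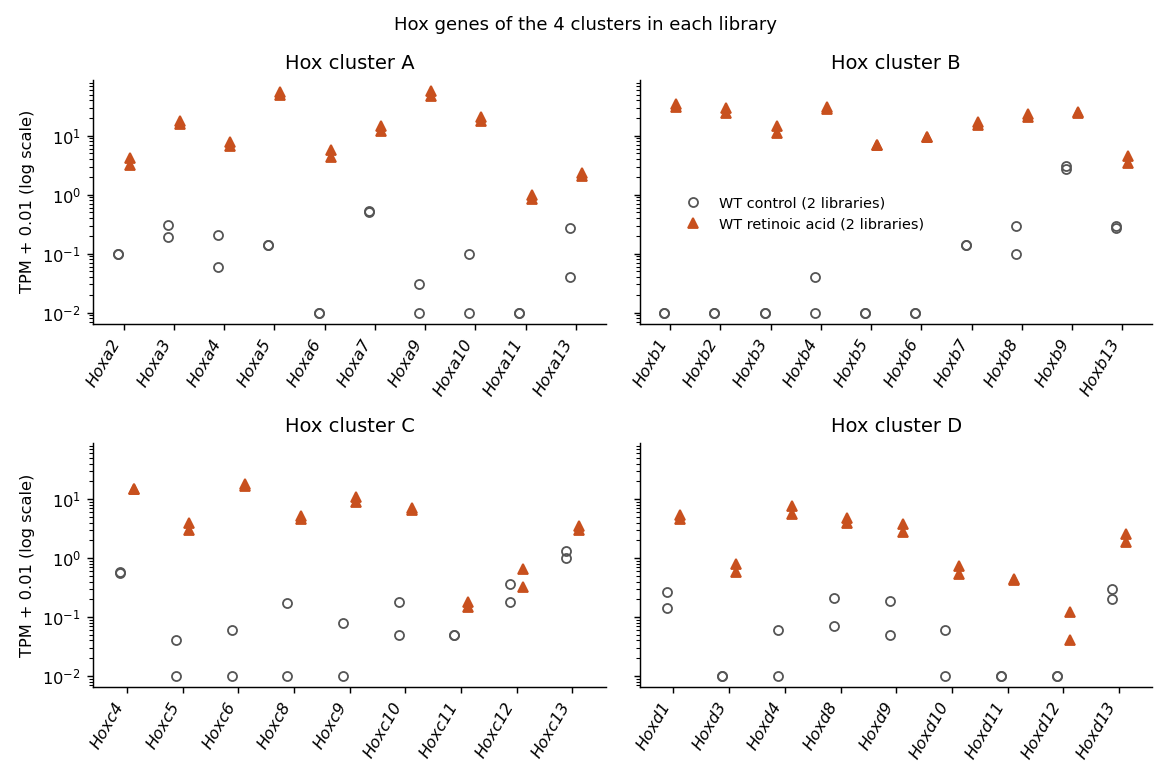
TPM of 38 Hox genes of clusters A to D in the 2 WT control libraries (open circles) and the 2 WT retinoic acid libraries (triangles), on a log axis after adding 0.01, so genes with no read sit at 0.01. Triangles lie above circles for every gene shown except Hoxc12, whose libraries overlap, and the gap shrinks at Hoxc11, Hoxc13 and Hoxb9.

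Partners and upstream factors of Hox proteins were next. Meis1, a TALE homeodomain cofactor of Hox proteins, went from 0.588 and 1.12 to 76.9 and 67 CPM (6.40 ± 0.15), and Meis2 from 4.65 and 5.85 to 98.4 and 90.1 CPM (4.17 ± 0.097). Tgif1, a TALE repressor, fell from 219 and 220 to 97.6 and 97.9 CPM (-1.17 ± 0.049). Cdx1, a caudal-type activator of Hox genes and a retinoic acid target, rose from 1 and 1.87 to 73.1 and 69.6 CPM (5.64 ± 0.18), Cdx2 rose to 14.7 and 11.5 CPM, and Cdx4 did not pass the test (-0.69, edgeR adjusted p = 0.23). In all 9 of 14 rose and 3 fell, with a median of 1.12 (1.78 on the TPM scale).

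Factors of the primitive endoderm, the extraembryonic layer that lines the yolk sac, rose without exception (12 of 12, median 5.43). Gata6, the factor that sets this lineage apart from the epiblast, went from 0.294 and 0.809 to 58 and 54.9 CPM (6.68 ± 0.16, edgeR adjusted p = 2.3e-23). Gata4 went from 1.47 and 1.62 to 41.7 and 40 CPM (4.72 ± 0.13), and Sox17 from 0.235 and 0.125 to 42.7 and 36.9 CPM (7.72 ± 0.25). Pdgfra, the receptor that marks the lineage, rose from 2.12 and 1.56 to 74 and 75.5 CPM (5.33 ± 0.12). Hnf4a and Hhex, which act later in endoderm, rose least, to 4.27 and 3.29 CPM and to 5.99 and 8.13 CPM.

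Genes of the matrix that primitive and parietal endoderm lay down rose too. Of 18 basement membrane genes 17 rose, 14 at least 2-fold, with a median of 2.55. Col4a1, a chain of the basement membrane collagen, went from 32.5 and 32.6 to 1787 and 1656 CPM (5.73 ± 0.067, edgeR adjusted p = 3.3e-30), and its partner Col4a2 from 17.5 and 21.2 to 1056 and 978 CPM. The laminin chains Lama1, Lamb1 and Lamc1, which together form the laminin of early embryos, rose by 4.34, 3.63 and 1.67 and ended at 1969 and 1891, 1504 and 1487, and 2571 and 2536 CPM. Serpinh1, the collagen chaperone, rose from 58.3 and 66 to 965 and 923 CPM (3.93 ± 0.074), and the collagen hydroxylase subunits P4ha1 and P4ha2 rose by 2.72 and 3.28. Collagen and matrix genes are also made by fibroblasts, whose marker sum went from 107 and 110 to 259 and 266 CPM, and their part was not tested. Nid2 was called higher by 0.12 on the CPM scale and stood at -0.03 once effective lengths entered the model. Fst, a follistatin gene of the parietal endoderm, was called lower (-0.61 ± 0.18) and stood at -0.08 on the TPM scale.

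Visceral endoderm genes include uptake receptors and secreted proteins. Cubn, the cubilin receptor of yolk sac endoderm (chr2:13276338-13491813), rose from 0.529 and 0.498 to 358 and 352 CPM (9.41 ± 0.11, edgeR adjusted p = 4.5e-30). Its adaptor Dab2 rose from 3.94 and 4.61 to 176 and 157 CPM (5.28 ± 0.093), and its partner Lrp2 from 42.4 and 43.8 to 140 and 140 CPM (1.70 ± 0.057). Several secreted products rose to low levels: Apob, an apolipoprotein, from 1.82 and 0.996 to 8.01 and 7.68 CPM (2.46 ± 0.21), while Ttr reached 1.81 and 2.14 CPM (at least 10.9-fold) and Afp 0.44 and 0.349 CPM (at least 2.17-fold) from no read, and Alb stood at or below 0.2 CPM. Apoe, which naive stem cells also make, fell from 536 and 562 to 175 and 189 CPM (-1.59 ± 0.06). Of 17 listed genes 12 were tested, 8 rose and 1 fell.

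**Figure D3:**
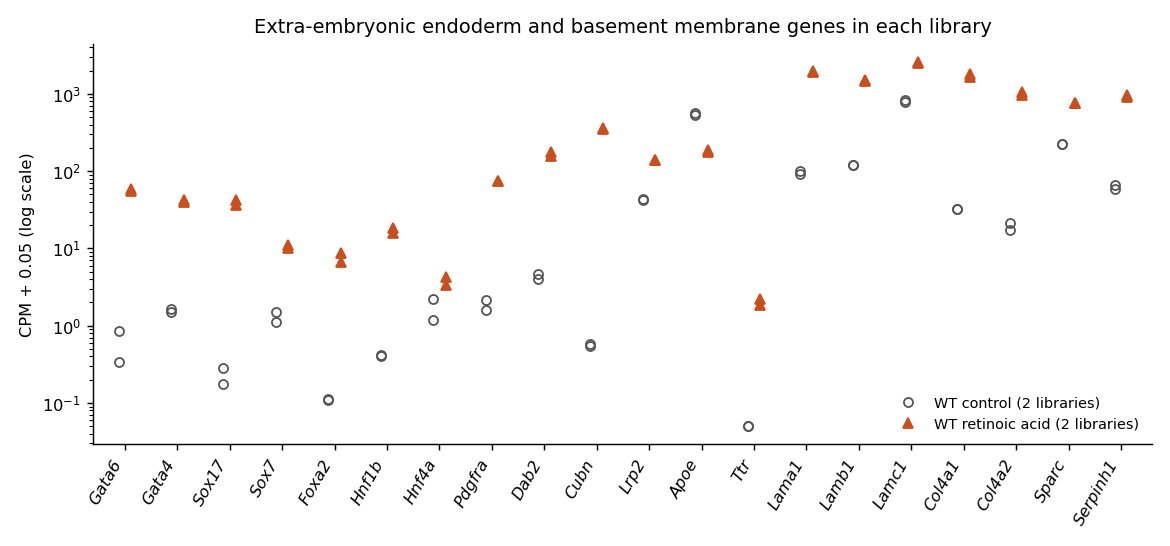
CPM of 20 extra-embryonic endoderm and basement membrane genes in the 2 WT control libraries (open circles) and the 2 WT retinoic acid libraries (triangles), on a log axis after adding 0.05. Triangles lie above circles for each gene except Apoe, the matrix genes Lama1, Lamb1, Lamc1 and Col4a1 end highest, and Ttr ends lowest at 1.81 and 2.14 CPM.

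Genes of embryonic layers other than endoderm rose at lower levels. In the primitive streak and mesoderm list 18 of 20 tested genes rose (median 2.33, and 1.40 on the TPM scale), but the streak genes T, Mesp1, Evx1 and Msgn1 were not tested because they stood at or below 0.294 CPM, and Mixl1 did not pass the test. Meox1, a somite factor, went from 1.47 and 0.311 to 23.2 and 17.5 CPM (4.48 ± 0.29), and Hand2 from no read to 2.29 and 2.84 CPM, at least 14.1-fold higher. Of 17 tested neural progenitor genes 14 rose (median 2.88, and 2.53 with the gene that had no control read at its bound, or 1.20 on the TPM scale), with Sox11 rising from 7.35 and 7.41 to 54.7 and 54.1 CPM and Msx1 from 0.294 and 0.374 to 21.4 and 17.1 CPM. The neural plate factors Pax6 and Sox1 ended at 5.64 and 5.59 CPM and at 13.8 and 13.7 CPM. Their changes on the TPM scale were 2.04 and 0.78, where the median of all tested genes was 0.50. Genes of differentiated neurons went the other way more often, 9 lower and 5 higher of 17 tested. Tubb3, the neuronal tubulin, fell from 84 and 83.1 to 3.74 and 3.64 CPM (-4.50 ± 0.1), and Stmn2 from 316 and 323 to 46 and 47.2 CPM (-2.78 ± 0.052). On the TPM scale the neuron list had 8 lower and 6 higher. Among the higher ones there were Dpysl3 (2.25), Map2 (1.66) and Syt1 (1.47), so the list was mixed.

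Trophectoderm genes, which Oct4 loss is known to release, also rose in 15 of 19 tested cases (median 2.30) while Pou5f1 itself did not pass the test. The keratin genes Krt8 and Krt18 rose from 36.1 and 34.7 to 212 and 192 CPM and from 19.5 and 18.7 to 116 and 108 CPM. Gata3 rose from 1.88 and 2.05 to 11.3 and 8.08 CPM (2.31 ± 0.18). Hand1, a giant-cell factor, stood at 2.41 and 2.05 CPM in control and 2.2 and 3.04 CPM in treated cells, overlapping, and did not pass the test. Tfap2c was called lower, from 58.7 and 59.1 to 31.4 and 34.3 CPM (-0.84 ± 0.073), and by -0.37 on the TPM scale.

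Genes of the self-renewing state fell, and Pou5f1 did not pass the test. Of 30 pluripotency genes 28 fell, 24 of them at least 2-fold, and none rose, with a median of -1.53 (-0.97 on the TPM scale, where 2 were higher). Pou5f1 itself (chr17:35506018-35510772) stood at 1031 and 1013 CPM in control and at 973 and 1081 CPM after retinoic acid (0.01 ± 0.086, edgeR adjusted p = 0.95), the libraries overlapping. On the TPM scale it was higher by 0.53 (limma adjusted p = 0.0021), close to the 0.50 by which the median gene was higher there. The deposited gene table has 1 entry for Pou5f1, and the share of its reads that came from the transgene was not tested.

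The partners of Oct4 fell. Nanog fell from 964 and 930 to 431 and 413 CPM (-1.17 ± 0.048, edgeR adjusted p = 2.7e-18), and Sox2, which binds DNA together with Oct4, from 381 and 389 to 113 and 117 CPM (-1.75 ± 0.053). Esrrb, an orphan receptor of the naive network, fell from 1109 and 1116 to 155 and 144 CPM (-2.89 ± 0.058), and Zfp42 (Rex1) from 1374 and 1368 to 290 and 285 CPM (-2.25 ± 0.048). All were lowered in both treated libraries and none was lost. The falls ran deepest in Tdh, the threonine dehydrogenase that naive cells depend on, from 268 and 271 to 8.76 and 7.73 CPM (-5.02 ± 0.071), in Tdgf1, the Nodal coreceptor, from 591 and 614 to 25.6 and 39.5 CPM, and in Utf1, from 303 and 312 to 24 and 25.1 CPM. Klf4, Klf5, Tfcp2l1 and Dppa5a kept more of their level than these, with changes of -1.15, -1.09, -1.13 and -1.17, near that of Nanog. They were not the most spared. On the TPM scale they stood at -0.65, -0.57, -0.65 and -0.63, while the smallest changes of the list were in Dppa4 (-0.08), Dppa2 (0.14), Tbx3 (-0.15) and Tet2 (-0.18). Besides Pou5f1, Dppa3 was the other gene of the list that did not pass the edgeR test, at 1.71 and 2.49 against 2.55 and 3.69 CPM.

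Genes of the formative state, which follows naive pluripotency in the embryo, moved both ways. Of 19 tested genes 8 rose and 11 fell (42.1% and 57.9%, beside 41.0% and 32.9% of all genes tested). The median was -0.30, and -0.04 on the TPM scale. Fgf5, the usual epiblast marker, stood at or below 0.44 CPM in all 4 libraries and was not tested. Otx2, the factor that opens the formative state, fell from 22.8 and 21.4 to 0.836 and 1.2 CPM (-4.45 ± 0.16), and Foxd3 from 67.1 and 65.1 to 4.18 and 3.19 CPM (-4.15 ± 0.11). Sox3 and Sox4 rose, from 0.588 and 0.56 to 13.2 and 13 CPM and from 17.6 and 17.6 to 119 and 113 CPM.

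**Figure D4:**
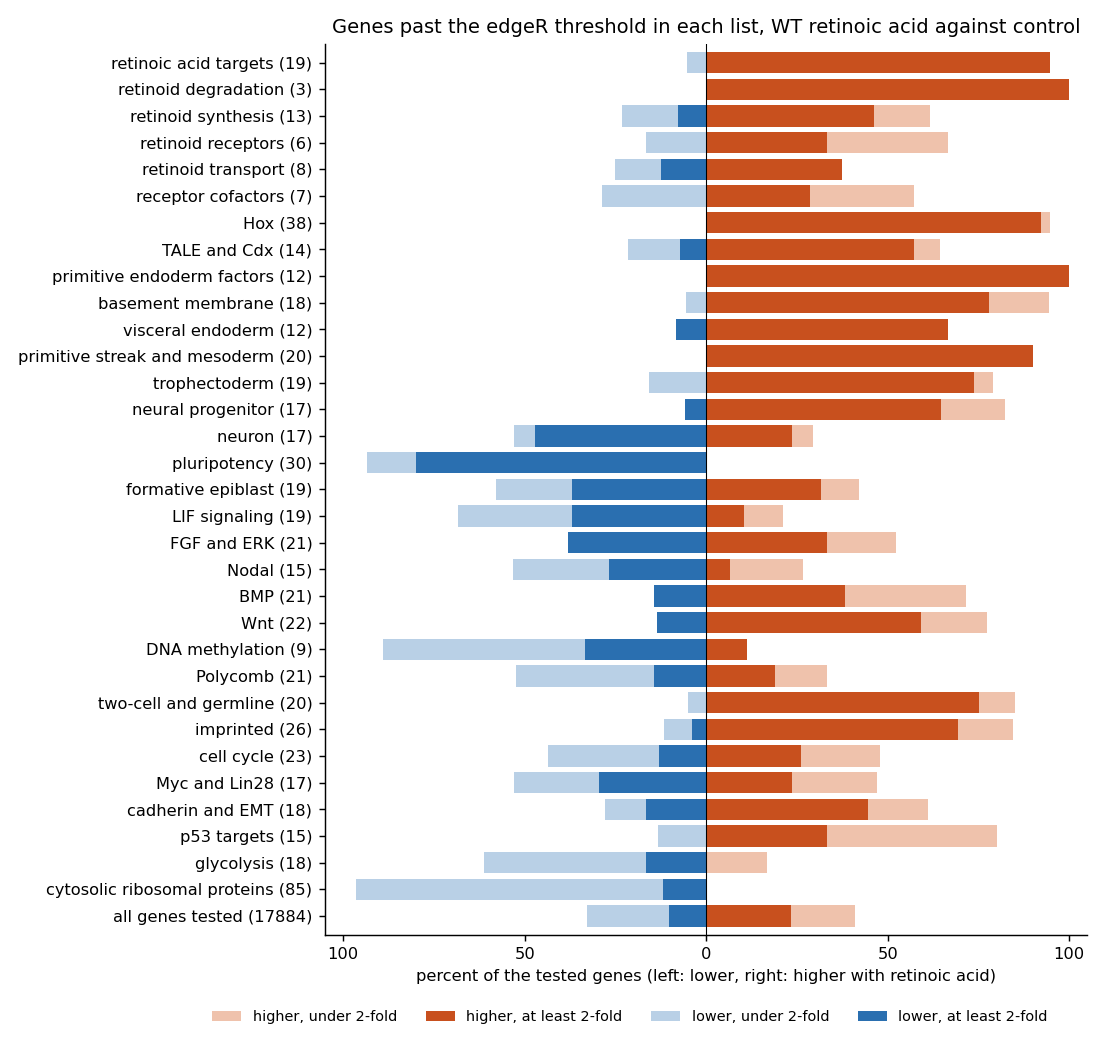
Percent of the tested genes of each list (number in brackets) that were called higher (right, orange) or lower (left, blue) in WT retinoic acid against WT control libraries, with dark shades for changes of at least 2-fold, pale shades for smaller ones, and all 17884 genes tested in the bottom bar. The primitive endoderm and retinoid degradation lists are called higher throughout, and the pluripotency and ribosomal protein lists hold no gene called higher.

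Several targets of LIF signalling fell in the medium without LIF, while Socs1 rose. Socs3, the feedback inhibitor that Stat3 switches on, fell from 150 and 154 to 26.2 and 26 CPM (-2.54 ± 0.062), Bcl3 from 44 and 47.4 to 11.2 and 9.68 CPM (-2.13 ± 0.094) and Pim3 from 238 and 245 to 63.3 and 69.2 CPM (-1.87 ± 0.061). Socs1, another feedback inhibitor of the pathway, rose from 1.53 and 1.06 to 5.55 and 4.94 CPM (2.01 ± 0.23). Stat3 itself was called lower by -0.50 on the CPM scale and stood at 0.11 on the TPM scale. Of 19 genes 13 fell and 4 rose, but on the TPM scale 7 fell and 6 rose, and the list's median went from -0.53 to -0.01. Of the receptor chains and kinases, Jak2 rose from 6.53 and 8.16 to 31 and 29.6 CPM (2.05 ± 0.1). Lifr was called lower by -0.19, and stood at 0.60 on the TPM scale.

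In the FGF list the stem cell ligand fell, the receptors rose and the targets moved both ways. Fgf4, the ligand that stem cells make themselves, fell from 219 and 218 to 30.9 and 33.5 CPM (-2.76 ± 0.064). Spry4, a target and inhibitor of the pathway, fell from 304 and 293 to 13.4 and 14.2 CPM (-4.44 ± 0.063), and Etv4, Etv5 and Egr1 fell by -2.07, -1.48 and -2.50. Fgfr2, the receptor of trophectoderm and primitive endoderm, rose from 9.94 and 10.5 to 74.5 and 70.5 CPM (2.83 ± 0.084), and Fgfr1, Fgfr3 and Fgfr4 rose by 0.84, 1.02 and 1.71. The feedback inhibitors Il17rd and Spry1 rose, from 29.4 and 29.8 to 94.8 and 88.2 CPM (1.63 ± 0.065) and from 6.65 and 8.16 to 15 and 15.1 CPM (1.03 ± 0.13), and Dusp6 was called higher by 0.12 ± 0.056. In the list 11 of 21 rose and 8 fell (52.4% and 38.1%, beside 41.0% and 32.9% of all genes tested).

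Nodal genes fell unevenly, and the small falls rest on the scale. Inhbb, an activin subunit, fell from 226 and 214 to 23.3 and 20.4 CPM (-3.33 ± 0.071), and Gdf3 from 80.4 and 89.1 to 10.8 and 8.73 CPM (-3.11 ± 0.096). Nodal, Lefty1 and Lefty2 were called lower by -0.55, -0.72 and -0.34, and stood at -0.03, -0.04 and 0.06 on the TPM scale. Of 15 tested genes 8 fell and 4 rose (median -0.34, and 0.06 on the TPM scale).

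BMP and Wnt genes rose more often. In the BMP list 15 of 21 rose (median 0.73), with Bmp2 going from 0.588 and 0.436 to 7.75 and 5.69 CPM, the target Id2 from 11.1 and 11.1 to 51.1 and 48.2 CPM (2.16 ± 0.084), and the antagonist-like gene Bmper from 0.0588 and 0.125 to 6.08 and 5.34 CPM, a ratio of 63.1 (counting interval 21.4 to 308). Bmp4, the BMP of stem cells, fell from 34 and 39.2 to 13.5 and 13.2 CPM (-1.45 ± 0.089). In the Wnt list 17 of 22 rose (median 1.67, and 0.94 on the TPM scale). Axin2, a general readout of the pathway, rose from 5.59 and 5.85 to 29.8 and 24.1 CPM (2.24 ± 0.12), Wnt8a from 0.353 and 0.0623 to 20.1 and 17.9 CPM and the inhibitor Dkk1 from 0 and 0.125 to 10.8 and 9.08 CPM, a ratio of 165 (counting interval 45.5 to 1371). Sp5, another target, stood at 0.706 and 0.623 against 0.925 and 0.748 CPM and did not pass the test.

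Of 9 DNA methylation genes 8 fell and 1 rose (4 lower and 2 higher on the TPM scale), and a few changes were large. Tet1, a dioxygenase that oxidises methylcytosine, fell from 615 and 557 to 76.4 and 83.7 CPM (-2.87 ± 0.059), while Tet3 rose from 21.4 and 20 to 62.2 and 61.5 CPM (1.58 ± 0.071). Uhrf1, which recruits the maintenance methyltransferase, fell from 521 and 501 to 197 and 208 CPM (-1.34 ± 0.05), and Dnmt3b from 126 and 129 to 67.6 and 63.8 CPM (-0.95 ± 0.052, or -0.30 on the TPM scale). Dnmt1 was called lower by -0.20 and stood at 0.31 on the TPM scale. Among the chromodomain subunits of Polycomb complex PRC1, Cbx8 rose from 0.588 and 0.809 to 8.5 and 7.93 CPM, while Cbx7, the stem cell form, was called lower by -0.54 and stood at 0.38 on the TPM scale. Eed, a core subunit of PRC2, fell from 226 and 233 to 96.4 and 95.5 CPM (-1.26 ± 0.049). The Polycomb list had 7 of 21 higher and 11 lower (33.3% and 52.4%, beside 41.0% and 32.9% of all genes tested). On the TPM scale it had 11 higher and 5 lower.

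Genes of the 2-cell embryo and of germ cells were also mostly higher. Zscan4c, a marker of the rare 2-cell-like state of stem cell cultures, went from 2.12 and 2.68 to 144 and 135 CPM (5.86 ± 0.12, edgeR adjusted p = 6.0e-25), and Zscan4d and Zscan4f rose by 5.50 and 5.53. These are members of a family of near-identical copies, so the split of reads between them is uncertain. Dazl, a germ cell RNA-binding protein, rose from 5.76 and 6.72 to 66 and 57.8 CPM (3.31 ± 0.1), and the meiotic cohesin Rec8 from 9.47 and 10.2 to 63.7 and 64 CPM (2.70 ± 0.081). Of 20 genes 17 rose, and Sycp3 was called lower (-0.88 ± 0.18) and stood at -0.35 on the TPM scale (limma adjusted p = 0.16).

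Imprinted genes, which are read from 1 parental copy, included large gains. Of 26 genes 22 rose and 3 fell (median 1.74, and 1.64 with the gene that had no control read at its bound). Igf2, the fetal growth factor, went from 18.9 and 19.1 to 532 and 492 CPM (4.75 ± 0.069) and its neighbour H19 from 21.8 and 23.7 to 510 and 481 CPM (4.45 ± 0.07). Dlk1 rose from 1.59 and 1.49 to 141 and 129 CPM (6.45 ± 0.11) and Peg10, a retroelement-derived placental gene, from 455 and 442 to 4303 and 4155 CPM (3.24 ± 0.053). Phlda2, a brake on placental growth, fell from 64.3 and 72.2 to 14.3 and 15.1 CPM (-2.21 ± 0.075).

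Of 23 cell cycle genes 11 rose and 10 fell (47.8% and 43.5%, beside 41.0% and 32.9% of all genes tested). On the TPM scale 15 were higher and 6 lower. Among the D cyclins, Ccnd1 fell from 157 and 157 to 17.8 and 15.1 CPM (-3.25 ± 0.081) and Ccnd2 rose from 4.29 and 2.99 to 58.3 and 54.1 CPM (3.94 ± 0.13). The inhibitors Cdkn1a and Cdkn1c rose by 1.33 and 1.90, ending at 59.1 and 61.1 and at 147 and 134 CPM, and Rb1 rose from 5.59 and 5.42 to 22.1 and 23.1 CPM. Mki67, the general proliferation marker, stood at 352 and 344 against 393 and 406 CPM and did not pass the test (0.20, edgeR adjusted p = 0.053). In the Myc and Lin28 list 8 of 17 rose and 9 fell (47.1% and 52.9%, beside 41.0% and 32.9% of all genes tested). Myc fell from 60.3 and 58.8 to 12.5 and 10.3 CPM (-2.37 ± 0.083), Mycn by -1.49 and the RNA-binding developmental timer Lin28a from 204 and 213 to 75.8 and 73.7 CPM (-1.48 ± 0.053). Hmga2, a target of the Lin28 pathway, rose from 14.9 and 16.3 to 122 and 112 CPM (2.91 ± 0.085).

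In the cadherin and epithelial-mesenchymal list 11 of 18 rose and 5 fell. Cdh2, the neural and mesenchymal cadherin, rose from 2.53 and 1.81 to 30.7 and 27.2 CPM (3.73 ± 0.14), but Cdh1, the epithelial one, stood at 275 and 270 against 237 and 245 CPM, called lower by -0.18 and higher by 0.32 on the TPM scale. Snai1 and Zeb2 rose by 3.15 and 3.39 and ended at 16.9 and 14.8 and at 9.16 and 6.68 CPM. Vim, the mesenchymal filament, fell from 212 and 212 to 104 and 99.9 CPM (-1.06 ± 0.056).

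Genes of protein synthesis took a smaller share of the counts. Of 85 cytosolic ribosomal protein genes 82 fell, within a range of -1.21 to 0.23 (median -0.78, and -0.25 on the TPM scale, where 59 were lower and 4 higher). They summed to 86652 and 91221 CPM in control and to 50658 and 53067 CPM after retinoic acid. Among 18 glycolysis genes 11 fell and 3 rose (7 lower and 8 higher on the TPM scale): Hk2, Pkm and Pfkp fell by -1.32, -1.02 and -1.12, while Slc2a1 was called higher by 0.46. Gapdh, often used as a reference gene, fell from 7138 and 7312 to 3638 and 3735 CPM (-0.97 ± 0.056, or -0.45 on the TPM scale).

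Among called genes that reached 5 CPM in 1 group with libraries that did not overlap, 7 of the 12 largest fitted rises were Hox genes and 1 was Cyp26a1. Of the 12, 9 had no control read, so their folds are lower bounds and their order is that of the fitted values. Beside those stood Hoxb5os, an antisense transcript at Hoxb5 (26.6 and 27 CPM from no read, at least 148-fold; the strand setting of the counting is not given in the sources used here, so its reads cannot be told apart from those of its partner), Habp2, a serine protease (12.1 and 9.03 CPM, at least 58.2-fold), Tnc, the matrix protein tenascin C (8.45 and 8.88 CPM, at least 47.7-fold), and Enpep, an aminopeptidase (8.1 and 8.43 CPM, at least 45.5-fold), all with no control read. By the same rule the deepest falls were in Nkx6-3, from 12.2 and 12 to 0 and 0.0499 CPM (control over retinoic acid 517, counting interval 92.3 to 20485), Pou4f2, from 15.1 and 15.7 to 0.044 and 0.15 CPM, and Khdc3, from 35.3 and 35.6 to 0.616 and 0.599 CPM. Fgf17, Kirrel2, Platr10, Tdh, Zfp819, Nphs1, Rasgrp2, Krt17 and Tubb3 completed the 12 falls. Measured as the difference in TPM, the largest gains were Mdk, the retinoic acid-responsive growth factor midkine, and Txnip, a regulator of glucose uptake. Mdk went from 186 and 186 to 1361 and 1355 TPM, and Txnip from 155 and 136 to 1133 and 1334 TPM. Peg10, Serpinh1, Sparc, Col4a1, Dynlt1b and Lamc1 followed, though Dynlt1b was higher by only 0.27 on the CPM scale. The largest losses were Rplp1, Ptma, Gapdh, Rps12, Hsp90aa1, Ppia, Hspa8 and Tuba1b, all abundant transcripts.

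The Phf6 KO line, whose 4 libraries are separate from those of wild-type cells, went through the same treatment. There 7319 genes rose (40.9%) and 6183 fell (34.6%). Of the wild-type rises, 6324 were also rises in KO cells (86.3% of the wild-type and 86.4% of the KO list), and of the falls 5144 were shared (87.4% and 83.2%), while 190 genes were called in opposite directions. The difference between the lines itself was called for 1308 genes more positive in KO (7.31%) and 1849 more negative (10.3%). On the TPM scale it was called for 774 and 977, and DESeq2 called 976 more negative. Of 19 retinoic acid targets 2 were more positive and 2 more negative, and of 38 Hox genes 3 were more positive and 0 more negative, beside the 7.31% and 10.3% of all genes. Cyp26a1 reached 183 and 204 CPM and Hoxb1 31.4 and 28.6 CPM in KO cells.

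Many self-renewal genes differed between the lines. In 22 of 30 pluripotency genes the KO response was more negative, beside 10.3% of all genes tested. Nanog fell to 431 and 413 CPM in wild-type cells but from 739 and 770 to 73.1 and 77 CPM in KO cells, a difference of -2.16 ± 0.071 (edgeR adjusted p = 1.3e-18). Klf4 ended at 124 and 130 CPM in wild-type cells and fell from 503 and 495 to 47 and 51.2 CPM in KO cells (-2.19 ± 0.076), having started higher there. Lefty2, at 28.6 and 24.3 CPM in treated wild-type cells, fell in KO cells from 117 and 107 to 3.04 and 3.66 CPM (-4.72 ± 0.15). Lin28a was the reverse case: it fell in wild-type cells and stood at 111 and 117 against 110 and 116 CPM in KO cells (1.46 ± 0.075), having started lower. Some yolk sac and matrix genes rose further in KO cells, Cubn to 1455 and 1434 CPM (difference 1.68 ± 0.42) and Sparc from 147 and 149 to 1746 and 1938 CPM, and 12 of 18 basement membrane genes were more positive there. Of 15 p53 target genes, 12 of which rose in wild-type cells, 13 had a more negative response in KO cells. Plk2, for instance, rose from 19.9 and 20.9 to 50.3 and 48.5 CPM in wild-type cells and stood at 45 and 52.4 against 51.1 and 48.7 CPM in KO cells.

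**Figure D5:**
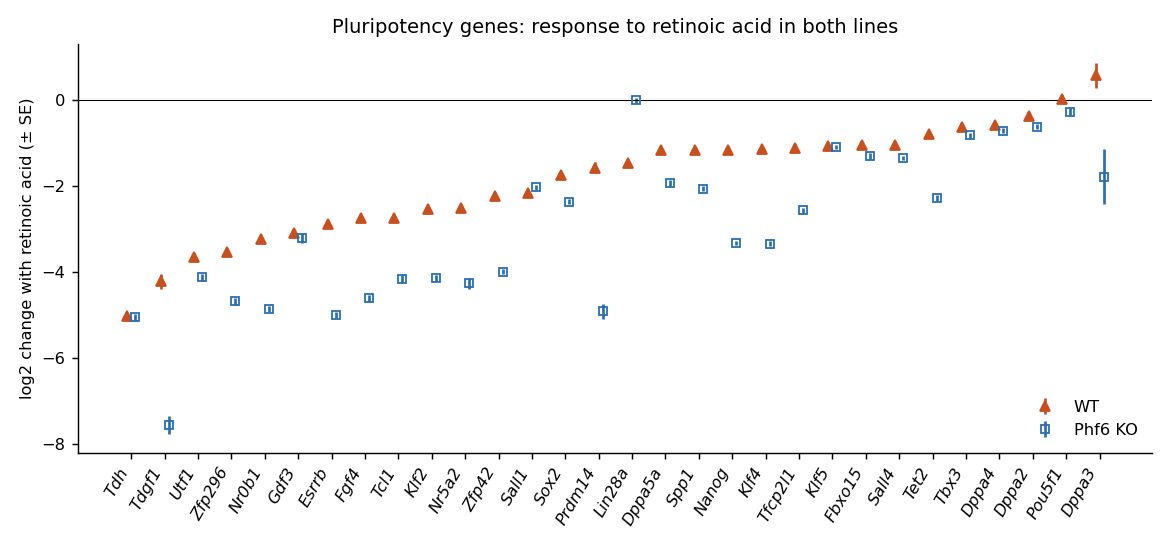
Fitted log2 change with retinoic acid, with its SE, of the 30 pluripotency genes in WT (triangles) and Phf6 KO cells (squares), in the order of the WT change. Pou5f1 lies at 0.01 in WT and -0.28 in KO cells, Nanog lies at -1.17 in WT and -3.33 in KO cells, and Lin28a lies at -1.48 in WT and -0.02 in KO cells.

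Doxycycline, which turns the Oct4 transgene off, was given to the same wild-type line. Retinoic acid libraries were higher than doxycycline libraries in 6685 genes (37.4%) and lower in 5939 (33.2%), 70.6% together (2550 lower on the TPM scale), with 4 and 2 days of treatment and different extraction texts, so the agent, the time, the medium (without LIF for retinoic acid) and the extraction cannot be told apart. Pou5f1 was at 34 and 46.3 CPM after doxycycline against 973 and 1081 CPM after retinoic acid (4.66 ± 0.11, edgeR adjusted p = 1.3e-12). Trophectoderm genes were lower after retinoic acid in 16 of 19 cases: Cdx2 stood at 14.7 and 11.5 CPM against 117 and 125 CPM (-3.21 ± 0.09), Gata3 at 11.3 and 8.08 against 83.3 and 88.6 CPM (-3.14 ± 0.098) and Krt8 at 212 and 192 against 1037 and 1141 CPM (-2.43 ± 0.078). Hox genes were higher after retinoic acid in 32 of 38 cases and primitive endoderm factors in 11 of 12. Igf2 rose with retinoic acid and was at 2637 and 2581 CPM after doxycycline, above the retinoic acid libraries (-2.35 ± 0.054).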

How the data were processed

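RNA was sequenced from 12 libraries in 6 groups of 2, and 1 RSEM gene table per library was deposited. The submitters' processing notes name STAR 2.5.3a, RSEM 1.3.0, DESeq2 1.18.1 and the build mm10, without their roles. The annotation release is not given in the sources used here, and neither is the strand setting. The deposited expected counts, estimates that need not be whole, were rounded to whole numbers. TPM values and effective lengths are those the authors deposited.

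All 12 libraries entered 1 model in edgeR 4.0.16 (R 4.3.3): filterByExpr by group, TMM, quasi-likelihood F test, and Benjamini-Hochberg adjustment over 17884 genes. The SE is the log2 change over the root of F. TPM were tested with limma 3.58.1 on log2(TPM + 0.5), an alternative chosen after seeing the data. On counts simulated for 17094 genes the test recovered 77.6% of genes changed 2-fold and 22% of those changed 1.25-fold. In that simulation 16899 of the genes were left unchanged, while 73.9% of genes were called in these data. Those rates therefore do not describe this comparison. Named genes were the list members, the 12 largest rises and falls among genes past the threshold that reached 5 CPM in either group and whose libraries did not overlap, and the 8 largest TPM changes. Members and lists were chosen with earlier results of these data known. Alternatives were DESeq2 1.42.0, other scalings, filters, subsets of libraries and a replicate block. The values of a few list members are not reported here, though the counts and sums over lists include them. Intervals and floors cover counting error only.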

Additional observations from a re-analysis of the deposited data

Results flagged for a closer look

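Of 22 tested key genes, 12 responded to retinoic acid differently in wild-type and Phf6 KO cells by the interaction term of the edgeR model. That term was called for 17.7% of all genes tested. The key genes were picked by hand from the lists, several of them pluripotency genes, so their count is no rate over genes. The difference, KO minus wild type on the log2 scale, is given for each of the 12. Cdx1 differed by -3.07 (edgeR adjusted p = 3.8e-06) and Gata4 by 1.53 (2.2e-04). Pluripotency genes responded more negatively in KO cells: Nanog by -2.16, Sox2 by -0.63, Zfp42 by -1.75, Esrrb by -2.11 and Klf4 by -2.19. Dnmt3b differed by 0.45, Gata3 by 1.85 and Pax6 by 2.46, each less negative or more positive in KO cells. The matrix genes Col4a1 and Lama1 differed by 0.55 and 0.22, the last with an edgeR adjusted p of 0.042.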

How the results depend on the processing

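Under 13 other settings and 1 added after seeing the data (limma on the deposited TPM), 413 of 547 named genes kept their direction and side of the threshold in all 14, and 961 of 1006 counts over lists stayed within 1.5 times. The former 13 gave 6199 to 7470 genes higher and 5521 to 6377 lower. TPM gave 10287 higher and 2525 lower, 774 more positive and 977 more negative in KO (DESeq2 976), 2550 lower than with doxycycline, and 101 list members lower. On TPM the lower counts were 0 for receptors, cofactors, retinoic acid targets, basement membrane, 2-cell and germline, p53 targets and fibroblast markers, 1 for transport, TALE and Cdx and trophectoderm, 3 for cadherins, 5 for Nodal, 6 for cell cycle and 7 for LIF. DNA methylation had 2 higher and 4 lower, Polycomb 11 and 5, glycolysis 8 and 7, and mitochondrially encoded genes 3 and 2, while 2 pluripotency and 4 ribosomal protein genes were higher. Other settings gave 2 visceral endoderm genes lower (no filter), 0 basement membrane genes lower and 3 neuron genes higher (effective-length offsets; DESeq2 also 3), and 2 neural progenitor genes lower and 1 mitochondrially encoded gene higher (only the 4 libraries compared). 1 ribosomal protein gene was higher without the filter, with only the 4 libraries, with offsets and with the replicate block. Leaving out 1 library gave 6565 to 6813 genes higher, 0 to 1 pluripotency and ribosomal protein genes higher, 1 to 2 transport and 0 to 1 basement membrane genes lower, 3 to 4 neuron and 1 to 3 glycolysis genes higher. Effective-length offsets turned Nid2 to -0.03, Zeb1 to 0.29 and Lifr to 0.09. TPM turned these log2 changes from negative to positive: Cdh1 0.32, Slc2a3 0.51, Stat3 0.11, Dnmt1 0.31, Kit 0.34, Suz12 0.09, Ncor1 0.06, Cdk1 0.23, Mdm2 0.53, Fos 0.02, Ets2 0.29, Tpi1 0.38, Zeb1 0.75, Cdk2 0.33, Phf6 0.47, Rnf2 0.45, E2f1 0.19, Ncoa3 0.07, Sesn2 0.30, Mtf2 0.04, Aebp2 0.05, Aldoa 0.13, Fgf3 0.49, Tyk2 0.40, Tdg 0.15, Pknox2 0.02, Hk1 0.40, Jarid2 0.48, Cdk6 0.28, Ptpn11 0.47, Epcam 0.41, Cbx7 0.38, Lifr 0.60, Acvr2b 0.30, Zic2 0.19, Pgk1 0.09, Lin28b 0.26, Rdh11 0.24, Lefty2 0.06 and Dppa2 0.14. Apart from the scale and the offsets, the cause was not tested. Same-numbered control and retinoic acid libraries share only a number (correlation of deviations 0.058); with the replicate block 7277 genes were higher and 5850 lower. A count of 0 allows up to 3 counts, 0.132 to 0.187 CPM on the scaled sizes of the 4 libraries.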
